A study of Mus musculus with 17 samples.

Results

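Saa3 and 7 other genes of the acute-phase response (Saa1, Saa2, Saa4, Hp, Orm1, Ptx3 and Slpi) were followed through 13 polyA RNA-seq libraries of mouse macrophages. All 8 were found by symbol among 24453 gene models. The set was picked from measured values of these libraries, because Saa3 was higher in macrophages edited at Jun than in their control. The levels in that comparison are therefore given as a description without a test, and tests are given for the other comparisons. Of these, Atf3KO and JunDKO against Scramble reuse the 2 Scramble libraries of the comparison that chose the set, so they are not independent of that choice.

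The acute-phase response is the change in blood proteins that follows infection or injury. Most of these proteins come from hepatocytes, which are driven by interleukin-1, interleukin-6 and the factors NF-kB, STAT3 and C/EBP, but macrophages also make several of them. Serum amyloid A proteins bind lipid and retinol and attract leukocytes through formyl peptide receptors. In mice Saa1 and Saa2 are the main liver forms and Saa4 is made constitutively, while Saa3 is the form made outside the liver and is known from activated macrophages. Hp encodes haptoglobin, which captures free haemoglobin, Orm1 encodes the plasma glycoprotein orosomucoid, Ptx3 encodes a pentraxin that binds microbes, and Slpi encodes a secreted inhibitor of neutrophil serine proteases.

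Immortalised bone marrow-derived macrophages (iBMDMs) and thioglycollate-elicited peritoneal macrophages (TGEMs) were compared. All iBMDMs were C57Bl/6EiJ cells transformed with BRAF(V600E) and Myc, and all are labelled as vehicle treated. The cells infected for knockout carried Cas9 with EGFP. Knockouts were made with lentiviral guides against Atf3 (Atf3KO), Jun (JunKO) or Jund (JunDKO). Control cells have the genotype label Scramble Control and the word zsGreen in their titles, and are called Scramble here. Infected cells were sorted on a marker carried by the virus, and the sources used here do not say that clones were picked. Each of these 4 groups had 2 libraries. TGEMs are primary cells that were cultured and then exposed to PBS as vehicle or, for 1 h, to KLA (Kdo2 lipid A), which activates TLR4. There was 1 library per treatment from C57Bl/6EiJ mice. From Balb/cJ mice there was 1 library with vehicle and there were 2 with KLA. All animals and cells are labelled male, the age of the mice is not in the labels, and how many mice entered a TGEM library is not stated in the labels.

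Levels are RPKM, reads per kilobase of exon scaled to the mapped reads of each library, so levels of different genes are compared per length. Library depth lay between 1553296 and 18444431 reads, and of the JunDKO libraries replicate 1 was the shallowest and replicate 2 the deepest of the 13. The Atf3KO libraries stood apart, with reads in 10425 and 10631 gene models against 11884 to 12533 in the other 6 iBMDM libraries, and replicate 2 of Atf3KO carried a later label date than the other 7. No targeted gene passed the test for a fall in its own group. Atf3 mRNA was higher in Atf3KO (154 and 169 RPKM) than in Scramble (80.7 and 77.4; limma adjusted p = 0.00237). Jun stood at 26.2 and 20.5 in JunKO against 17.6 and 18.5, and Jund at 6.94 and 6.07 in JunDKO against 9.19 and 8.33. Jund was also higher in Atf3KO than in Scramble, at 22.6 and 83.0 RPKM (log2 difference 2.19 ± 0.49, SE). An mRNA level does not check a frameshift, and the groups are called by their labels throughout. The study reports that western blots bore out the knockout efficiency, and protein was not measured in the libraries used here. Of 8 macrophage markers 8 reached 1 RPKM in each group. Although labelled male, TGEM libraries held 863 to 8676 Xist reads, against 0 to 3 in iBMDMs.

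The 4 serum amyloid genes form a cluster on mouse chromosome 7 (GRCm38, the mm10 build). Saa3 (NM_011315, 4 exons) lies at 46711998 to 46715676 on the minus strand. Saa4 (NM_011316, 4 exons) at 46727999 to 46732543 and Saa1 (NM_009117, 4 exons) at 46740499 to 46742980 share that strand, and Saa2 (NM_011314, 4 exons) at 46751833 to 46754314 is on the plus strand. The other members are scattered: Slpi (NM_011414, 4 exons) is on chromosome 2 at 164354070 to 164356507, minus strand, Hp (NM_017370, 5 exons) on chromosome 8 at 109575128 to 109579172, minus strand, Ptx3 (NM_008987, 3 exons) on chromosome 3 at 66219887 to 66225806, plus strand, and Orm1 (NM_008768, 6 exons) on chromosome 4 at 63344556 to 63348163, plus strand. The Saa1 and Saa2 transcripts were 94.4% identical over 606 aligned bases, so reads of one could have been assigned to the other. Saa3 was 76.3% identical to Saa1 over 520 bases and 75.3% identical to Saa4 over 550 bases.

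The bases upstream of the start site are shown for Saa3 and Slpi, which were called in JunDKO, and for Saa1, a liver form without a read in these cells. Sequences are the 250 bases before the annotated start, read 5′ to 3′ on the strand of the gene, from RefSeq on GRCm38.p6. The Saa3 window is chr7:46715677-46715926 (minus strand), the Saa1 window chr7:46742981-46743230 (minus strand) and the Slpi window chr2:164356508-164356757 (minus strand). Capitals mark a match to the C/EBP letters TTGCNNAA on either strand.
Saa3: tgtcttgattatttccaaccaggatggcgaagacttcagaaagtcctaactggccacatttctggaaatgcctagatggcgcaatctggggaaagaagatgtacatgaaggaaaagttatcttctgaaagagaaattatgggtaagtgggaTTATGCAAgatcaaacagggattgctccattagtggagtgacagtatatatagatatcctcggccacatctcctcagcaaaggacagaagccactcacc
Saa1: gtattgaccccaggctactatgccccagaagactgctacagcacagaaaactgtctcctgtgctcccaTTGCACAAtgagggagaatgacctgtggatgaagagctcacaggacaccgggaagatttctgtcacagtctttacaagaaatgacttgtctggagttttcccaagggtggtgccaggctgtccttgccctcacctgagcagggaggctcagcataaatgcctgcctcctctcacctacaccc
Slpi: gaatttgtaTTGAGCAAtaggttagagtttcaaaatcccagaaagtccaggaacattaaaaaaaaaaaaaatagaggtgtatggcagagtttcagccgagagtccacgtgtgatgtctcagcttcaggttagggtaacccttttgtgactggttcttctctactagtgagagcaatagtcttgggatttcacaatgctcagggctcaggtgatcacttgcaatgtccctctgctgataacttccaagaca
Of the 8 members 6 had an entry (Saa1, Saa2, Saa3, Saa4, Ptx3 and Slpi), and each window held a C/EBP match, as did 9.57% of 32841 such windows of all genes. The 6 are not separate cases, since the Saa1 and Saa2 windows were 95.6% identical and shared the match, and the Saa3 window was in view when the letters were set. The match lay 99 to 92 bases before the start in Saa3 and 241 to 234 bases before it in Slpi. In Saa1 it lay at 182 to 175 and in Ptx3 at 57 to 50, and Saa4 held a pair of matches. Searched on both strands, the AP-1 letters TGANTCA (6.75% of all windows), the CRE letters TGACGTCA (1.55%), the NF-kB letters GGANTTTCC (1.07%) and the STAT letters TTCNNNGAA (7.02%) matched none of the 6 windows. A match or its absence is a description of these letters in this window, not of binding by a factor.

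Saa3 was by far the most abundant member in every library. In Scramble iBMDMs it measured 1175 and 1172 RPKM, which placed it 19th and 18th among all gene models. Atf3KO libraries held 3573 and 3599 RPKM, and JunKO libraries held 5958 and 6570 RPKM. There Saa3 was the gene with the 4th highest level in either JunKO library and took 0.313% and 0.345% of all mapped reads. JunDKO libraries held only 88.3 and 109 RPKM. The groups did not overlap, and their order was JunKO, Atf3KO, Scramble and JunDKO. The set was chosen because Saa3 was higher in JunKO than in Scramble, so this order is a description only. TGEMs lay at or somewhat above the level of JunDKO iBMDMs, with 171 and 105 RPKM in the C57Bl/6EiJ vehicle and KLA libraries, 105 in the Balb/cJ vehicle library and 125 and 169 in the Balb/cJ KLA libraries.

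**Figure D1:**
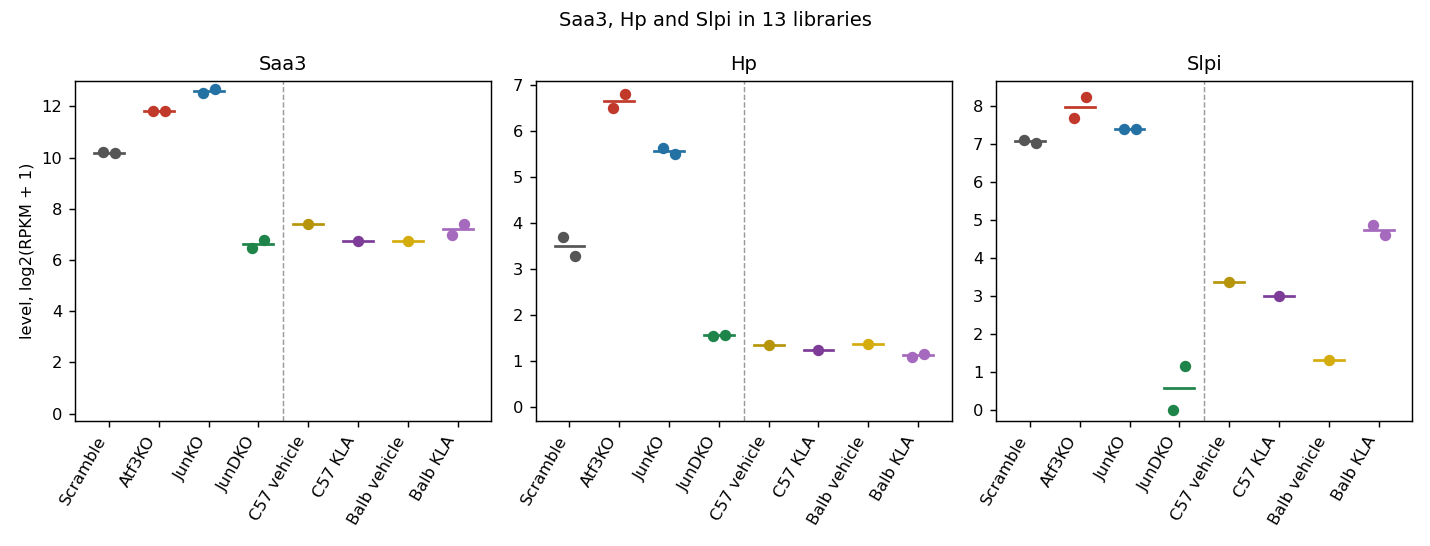
Levels of Saa3, Hp and Slpi, as log2(RPKM + 1), in each library (points) with the mean of each group (bars), where iBMDM groups of 2 libraries stand left of the dashed line and TGEM groups of 1 or 2 right of it. JunDKO libraries are the lowest iBMDM libraries for all 3 genes, and Saa3 and Hp are higher in Atf3KO and JunKO than in Scramble.

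Hp and Slpi were the other members whose mean reached 1 RPKM in both fits, and they alone entered the tests beside Saa3. Scramble libraries held 12.0 and 8.73 RPKM of Hp, against 88.7 and 110 in Atf3KO, 48.7 and 44.5 in JunKO and only 1.93 and 1.99 in JunDKO. In TGEMs it stayed between 1.13 and 1.60 RPKM, close to its level in JunDKO iBMDMs. Slpi measured 138 and 130 RPKM in Scramble, 207 and 304 in Atf3KO and 168 and 170 in JunKO. JunDKO libraries held 0 and 1.25 RPKM of Slpi, from 0 and 20 reads. In TGEMs Slpi ranged from 1.47 to 28.3 RPKM. Hp was highest in Atf3KO and Saa3 in JunKO, the group on which the set was chosen, and this difference in order was not tested.

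The remaining 5 members were at or near the limit of detection, and none of them passed the filter on low values. Saa1, Saa2 and Saa4 had 0 reads in all 13 libraries. A count of 0 allows up to 3 reads, which over the 8 iBMDM libraries together is 0.129 RPKM for Saa1, 0.128 RPKM for Saa2 and 0.0383 RPKM for Saa4, and over the 5 TGEM libraries 0.122, 0.122 and 0.0363 RPKM. Ptx3 had no reads in iBMDMs, where the same limit is 0.0404 RPKM, and none in the C57Bl/6EiJ vehicle library. It measured 0.321 RPKM in the C57Bl/6EiJ KLA library, 0.445 in the Balb/cJ vehicle library and 0.575 and 0.317 in the Balb/cJ KLA libraries, from 2, 2, 19 and 4 reads. Orm1 had 4 reads in Scramble replicate 1 (2.69 RPKM) and 0 in the other 7 iBMDM libraries. In TGEMs it measured 1.25 and 0 RPKM in the C57Bl/6EiJ vehicle and KLA libraries, 0.554 in the Balb/cJ vehicle library and 0.451 and 0.788 in the Balb/cJ KLA libraries. These limits cover counting error only.

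The comparison that chose the set is JunKO against Scramble. Saa3 was 5.34-fold higher in JunKO by the ratio of group means, a log2 difference of 2.41. Hp was 4.49-fold higher, a log2 difference of 2.08, with 111 and 102 reads against 31 and 20. Slpi was 1.26-fold higher, a log2 difference of 0.33. The JunKO libraries lay above both Scramble libraries for all 3 genes, by a small margin for Slpi. How many of all tested genes do so is not given here. In this comparison 0.103% of all tested genes were called higher, and since the set was chosen on it nothing is read from that share. Calls required an adjusted p below 0.05, a change of 2-fold or more, and 16 RPKM or more as the mean of either group.

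Atf3KO against Scramble asks what editing of Atf3, a factor known as a brake on TLR-driven genes, does to the same genes. Of the 3 members tested 2 were called higher (Saa3 and Hp), against 7.84% of all tested genes called higher. Saa3 rose 3.06-fold, with a log2 difference of 1.61 ± 0.17 (SE; limma adjusted p = 0.000619), and both Atf3KO libraries lay above both Scramble libraries. The Scramble values here are those that entered the choice of the set. Hp rose 9.59-fold, with a log2 difference of 3.15 ± 0.21 (SE; limma adjusted p = 0.000114), the 59th highest difference of 10691 genes. Slpi was 1.90-fold higher in Atf3KO, with a log2 difference of 0.90 ± 0.36 (SE; limma adjusted p = 0.0744), which did not pass the test although the libraries did not overlap. With the later-dated replicate 2 of Atf3KO left out, so that all libraries shared a label date and Atf3KO was 1 library assumed to vary like the other groups, the log2 differences were 1.61 for Saa3 (limma adjusted p = 0.00457) and 3.00 for Hp (limma adjusted p = 0.00275). For Slpi that value was 0.62 (limma adjusted p = 0.321). The adjusted p of Slpi depended on the setting, and was 0.0083 by limma-voom, 0.0146 with a pseudocount of 5 RPKM and 0.0445 with only the 2 groups in the fit, up to 0.475 with a pseudocount of 0.1 RPKM. The 3 differences below the threshold were under 2-fold, and Slpi was called in 0 of 14 alternatives. The part of the lower number of detected gene models in the Atf3KO libraries in these differences was not tested.

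JunDKO against Scramble gave the opposite direction. Of 3 members tested 2 were called lower (Saa3 and Slpi), against 2.27% of all tested genes called lower. Saa3 fell 11.9-fold, with a log2 difference of -3.57 ± 0.17 (SE; limma adjusted p = 1.50e-05), and both JunDKO libraries lay far below both Scramble libraries. Slpi fell to 20 reads in the deepest library and 0 in the shallowest, with a log2 difference of -6.49 ± 0.36 (SE; limma adjusted p = 3.47e-05), the 4th lowest of 10691 genes. At such low reads the size is set by the pseudocount, and the Slpi difference was -8.52 with a pseudocount of 0.1 RPKM and -4.64 with 5 RPKM. Hp was 5.30-fold lower, with a log2 difference of -1.93 ± 0.21 (SE; limma adjusted p = 0.00101), but was not called because the mean was below 16 RPKM in both groups. The median of all tested genes was itself 0.235 higher in JunDKO, and after scaling all libraries to equal medians the differences were -3.85 for Saa3, -6.77 for Slpi and -2.21 for Hp. In bulk RNA, fewer cells that express a gene and less RNA of it per cell cannot be told apart.

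**Figure D2:**
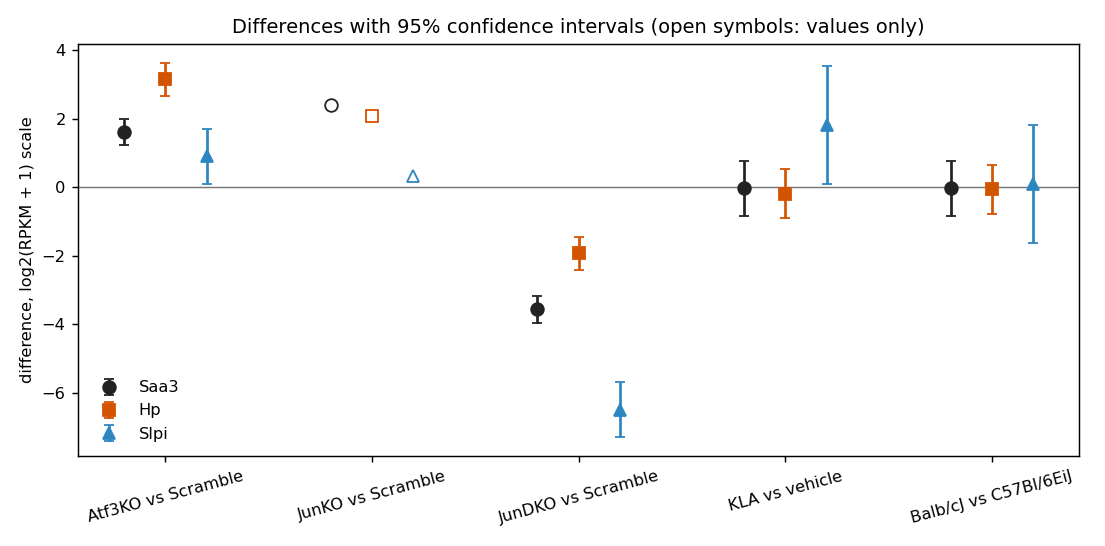
Differences in log2(RPKM + 1) of Saa3, Hp and Slpi in 5 comparisons, with unadjusted 95% confidence intervals, and open symbols mark JunKO, which chose the set and has no interval. Saa3 and Hp lie above 0 in Atf3KO and below 0 in JunDKO, Slpi lies at -6.49 in JunDKO, and in the TGEM comparisons no member passed the adjusted threshold.

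Atf3KO and JunDKO were also compared directly. The log2 differences of this comparison use no Scramble or JunKO value, whereas the SE and p pool the spread of all 4 groups. All 3 tested members were called higher in Atf3KO than in JunDKO, against 5.5% of all tested genes called higher. Slpi had a log2 difference of 7.39 ± 0.36 (SE; limma adjusted p = 2.56e-05), the 2nd highest of 10691 genes, and its size depends on the pseudocount (9.42 with 0.1 RPKM and 5.52 with 5 RPKM). Saa3 differed by 5.18 ± 0.17 (SE; limma adjusted p = 6.01e-06), or 36.4-fold, and Hp by 5.08 ± 0.21 (SE; limma adjusted p = 1.40e-05), or 50.8-fold. With only these 2 groups in the fit the limma adjusted p was 0.000513 for Saa3, 0.000606 for Hp and 0.00135 for Slpi. Of the lists described further on, 2 of 5 other acute-phase proteins were called higher (Lcn2 and C3), 3 of 16 inducers and regulators higher and 2 lower, and 1 of 15 receptors and partners higher and 3 lower, where 6.73% of all tested genes were called lower. Of the 3 targeted genes 1 was called higher, Jund (log2 difference 2.57 ± 0.49, SE; limma adjusted p = 0.00485). Jund was also called higher in Atf3KO against Scramble. It kept its call in 14 of 14 alternatives here and in 12 of 14 in Atf3KO against Scramble. The libraries of these knockouts did not overlap for any of the 3 members tested. The share of all tested genes without overlap is not given here, so nothing is read from that count.

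Markers of other cell types were examined in the same libraries. Of 9 neutrophil markers, S100a8 alone reached 1 RPKM in iBMDMs. It stood at 34.8 and 33.2 RPKM in Scramble, 41.1 and 21.8 in Atf3KO and 22.7 and 24.1 in JunKO. S100a8 had no reads in either JunDKO library, where the 3-read limit over the group is 0.388 RPKM, so it was at least 87.7-fold lower than in Scramble. That bound covers counting error only and rests mainly on the deep replicate 2, since the limit of replicate 1 alone is 4.99 RPKM. The summed level of the 9 markers was 33.2 to 35.0 RPKM in Scramble and 0 in JunDKO, and 7 of the 9 had no reads in any iBMDM library, S100a9 among them. Of 5 hepatocyte markers none reached 1 RPKM in any library, and their summed level was at most 0.630 RPKM in iBMDMs and 0 in TGEMs. Summed macrophage markers ranged from 16880 to 17442 RPKM in JunDKO and from 22314 to 23851 RPKM in Scramble, and most of either sum was Lyz2 (means of 14962 and 20855 RPKM). As a list the 8 macrophage markers had a median log2 difference of 0.19 in JunDKO against 0.235 over all tested genes, with 1 called higher (Mertk, 2.12, limma adjusted p = 0.000509) and 0 lower. Itgam differed by -0.99 (216 against 431 RPKM in the means, limma adjusted p = 0.00598), just short of the 2-fold that a call needs, and was called in 2 of 14 alternatives. Adgre1 differed by -0.66 and Lyz2 by -0.48, with limma adjusted p = 0.0739 and 0.201. The part of these levels in the differences of Saa3 and Slpi was not tested.

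Other genes of the response were counted from lists of genes known to belong to it. Of 22 further acute-phase proteins 5 were expressed highly enough to test in iBMDMs (Lcn2, C3, Cp, Mt1 and Mt2). In Atf3KO 0 of the 5 were called, where 7.84% of all tested genes were called higher and 4.69% lower, and the median log2 difference was 0.40 against 0.05 over all tested genes. In JunDKO 2 of the 5 were called lower and 0 higher, where 2.27% of all tested genes were called lower and 2.69% higher, with a median of -1.14 against 0.235 over all tested genes. Lcn2, which encodes lipocalin 2, a protein that starves bacteria of iron, measured 1305 and 929 RPKM in Scramble, between 1059 and 1423 in Atf3KO and JunKO, and 3.05 and 0 in JunDKO. Lcn2 was called lower in JunDKO (log2 difference -9.10 ± 0.55, SE; limma adjusted p = 4.83e-05), from 4 and 0 reads, so that the size of this difference depends on the pseudocount of 1 RPKM. C3, the central complement component, measured 175 and 157 RPKM in Scramble and 22.2 and 20.9 in JunDKO, a log2 difference of -2.89 ± 0.17 (SE; limma adjusted p = 4.71e-05). Lcn2 was at or near 0 in JunDKO, whereas C3 kept a level above 20 RPKM there. Neither Lcn2 nor C3 passed the test for a rise in Atf3KO (limma adjusted p = 0.912 and 0.0911). Cp, which encodes the copper carrier ceruloplasmin, had a log2 difference of 1.07 in Atf3KO (4.83 against 1.73 RPKM in the means, limma adjusted p = 0.0318) and was not called because both means were below 16 RPKM.

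The upstream cytokines and factors were counted in the same way. Of 21 inducers and regulators 16 were tested in iBMDMs. In total 2 were called higher and 1 lower in Atf3KO, and 2 were called higher and 0 lower in JunDKO. Of all tested genes 7.84% were called higher and 4.69% lower in Atf3KO, and 2.69% higher and 2.27% lower in JunDKO. The median of their log2 differences was 0.01 in Atf3KO and 0.18 in JunDKO, against 0.05 and 0.235 over all tested genes. Cebpd, a C/EBP factor induced in the acute phase, measured 3.67 and 3.37 RPKM in Scramble and 33.8 and 94.3 in Atf3KO, a log2 difference of 3.67 ± 0.41 (SE; limma adjusted p = 0.000781). Cebpb, its close relative, measured 26.7 and 30.1 RPKM in Scramble and 70.1 and 300 in Atf3KO, a difference of 2.32 ± 0.55 (SE; limma adjusted p = 0.0126) that kept its call in 11 of 14 alternatives. Neither Cebpb (26.8 and 20.3 RPKM) nor Cebpd (4.28 and 5.43 RPKM) was called in JunDKO, with limma adjusted p = 0.792 and 0.599. Cebpa was higher in JunDKO (20.8 and 26.8 RPKM against 5.51 and 5.99; limma adjusted p = 0.00573), a call kept in 12 of 14 alternatives. Tnf was lower in Atf3KO (6.49 and 5.79 RPKM against 23.6 and 33.7; limma adjusted p = 0.000672). Il6, the main inducer of the hepatic response, did not exceed 1.15 RPKM in iBMDMs.

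Receptors and partners of the members were the last of these lists. Of 21 such genes 15 were tested in iBMDMs. In total 5 were called higher and 2 lower in Atf3KO, and 5 were called higher and 3 lower in JunDKO, to be read against the same shares of all tested genes. The median log2 difference of the list was 0.20 in Atf3KO and 0.52 in JunDKO. Fpr1, a formyl peptide receptor, measured 123 and 93.9 RPKM in Scramble and 0.976 and 0.288 in JunDKO, a log2 difference of -6.08 ± 0.25 (SE; limma adjusted p = 8.77e-06). Fpr2, the formyl peptide receptor through which serum amyloid A attracts cells, measured 41.3 and 46.6 RPKM in Scramble, 16.2 and 8.34 in Atf3KO and 0 and 2.56 in JunDKO. The Fpr2 difference was -4.57 ± 0.54 in JunDKO (SE; limma adjusted p = 0.00143) and -1.82 ± 0.54 in Atf3KO (SE; limma adjusted p = 0.0283), the latter called in 8 of 14 alternatives. Hmox1, which degrades the haem of captured haemoglobin, measured 707 and 623 RPKM in Scramble and 235 and 183 in JunDKO (limma adjusted p = 0.00122). C1qa, C1qb and C1qc, the complement subunits that pentraxins bind, were called higher in Atf3KO and in JunDKO. Their levels were also higher in both JunKO libraries than in Scramble, where 0 genes of the list were called. C1qc measured 120 and 86.3 RPKM in Scramble, 695 and 1103 in Atf3KO, 860 and 681 in JunDKO and 308 and 224 in JunKO. Fpr1 and Fpr2 fell in JunDKO as Slpi did, whereas the C1q genes rose there.

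**Figure D3:**
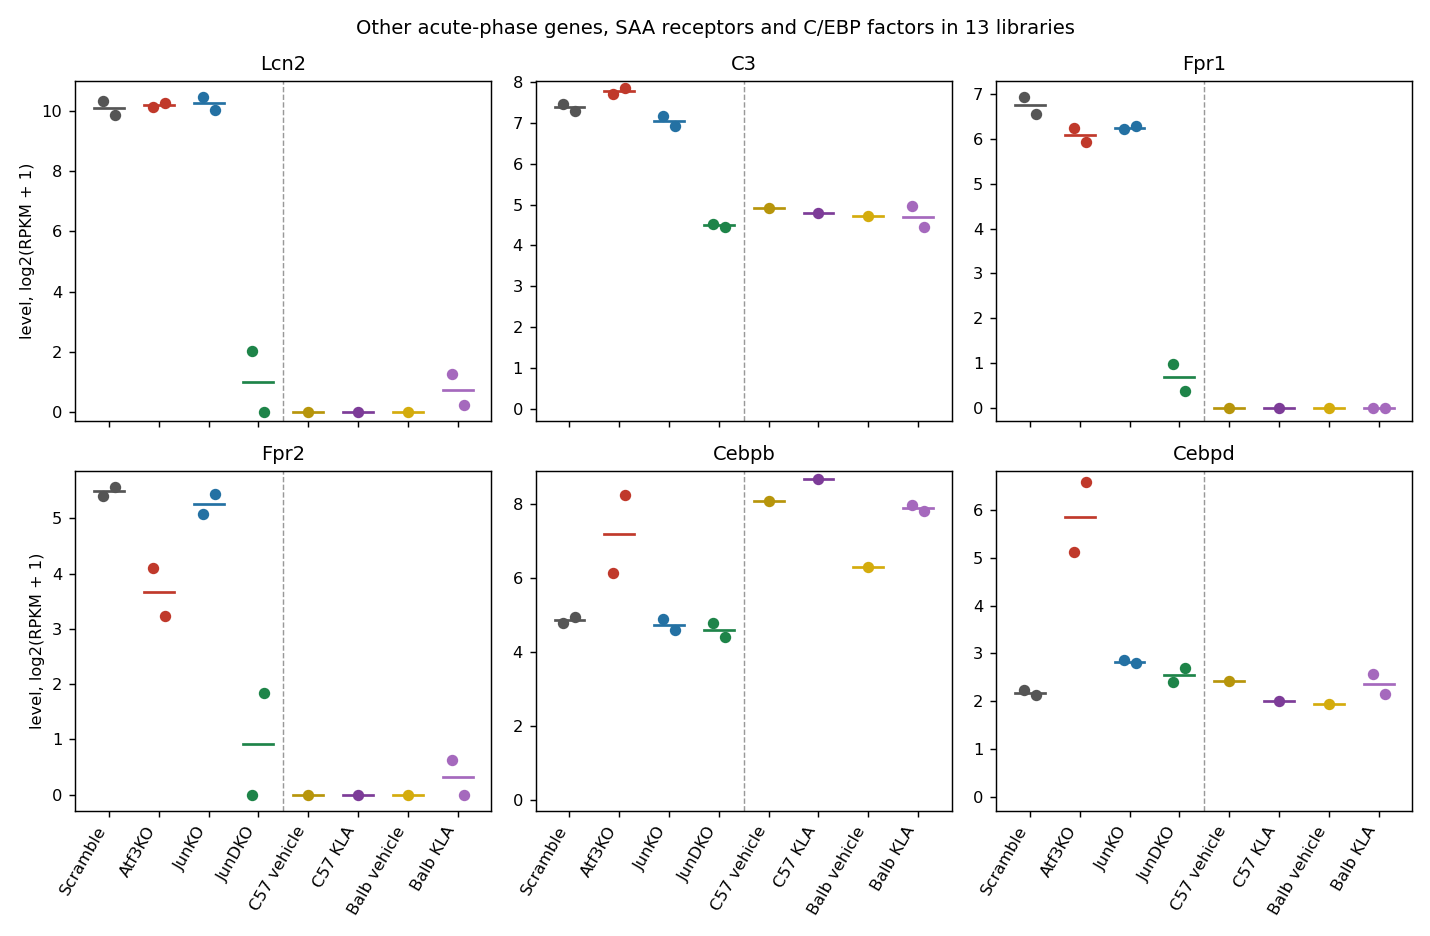
Levels of Lcn2, C3, Fpr1, Fpr2, Cebpb and Cebpd, as log2(RPKM + 1), in each library (points) with group means (bars), and the dashed line separates iBMDMs from TGEMs. Lcn2, C3, Fpr1 and Fpr2 are lowest in JunDKO among iBMDMs, and Cebpb and Cebpd are highest in Atf3KO among iBMDMs.

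None of the 4 tested genes next to Saa3 and of the 4 next to Hp was called lower in JunDKO. That is near the share of all tested genes called lower, 2.27%, and is not read as a result about these neighbours. Within 100 kb of Saa3, 4 neighbours were tested (Sergef, Saal1, Hps5 and Gtf2h1), and their log2 differences in JunDKO lay between 0.23 and 0.86, against -3.57 for Saa3. Around Hp the 4 tested neighbours (Dhx38, Txnl4b, Dhodh and Ist1) lay between -0.17 and 0.93. Around Slpi, Sdc4 lay at 0.29. Mir7678, which was called lower, lies inside the Slpi gene, and its reads cannot be told from those of Slpi. In Atf3KO, Sergef (log2 difference 2.32, limma adjusted p = 0.000994) was called higher beside Saa3 and Dhodh (2.15, limma adjusted p = 0.00216) was called higher beside Hp, whereas Sdc4 beside Slpi was called lower (-1.48, limma adjusted p = 0.00124). These were 1 of 4, 1 of 4 and 1 of 2 tested neighbours. Of all tested genes 7.84% were called higher and 4.69% lower in Atf3KO. The window was chosen after the values were seen.

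The genes most like Saa3 in level were found by Pearson's r of log2(RPKM + 1) among genes whose mean reached 16 RPKM. Over all 13 libraries, among 3965 genes, they were Mir7678 (r = 0.957), Creld2 (0.957), Prdx5 (0.952), Lcn2 (0.945) and Scd2 (0.941), and the members Hp and Slpi had r = 0.953 and 0.892. Over the 8 iBMDM libraries they were Pdia6 (0.996), Scd2 (0.989), Pdia4 (0.987), Itgam (0.970) and Manf (0.969), against 0.923 for Hp and 0.939 for Slpi. Pdia6, a disulfide isomerase, was lowest in JunDKO (130 and 135 RPKM), followed by Scramble (255 and 280), Atf3KO (353 and 347) and JunKO (383 and 383), the same order of groups as Saa3 over a narrower range. The libraries fall into clusters by group, cell kind and date, so r describes these groups and not single libraries.

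**Figure D4:**
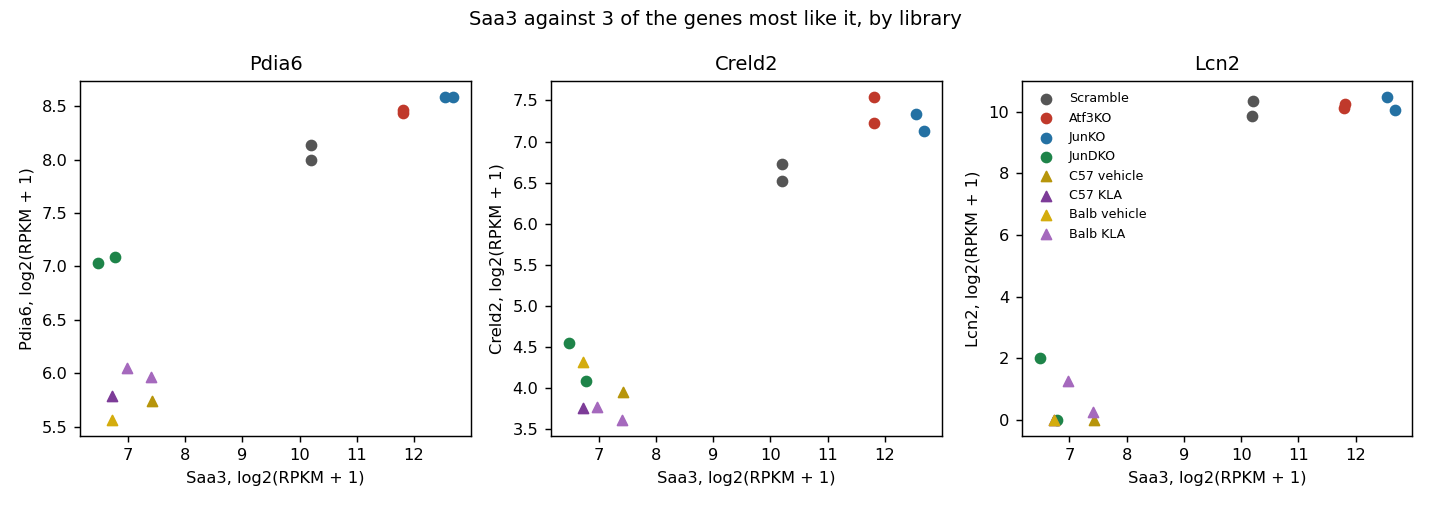
Level of Pdia6, Creld2 and Lcn2 against that of Saa3, all as log2(RPKM + 1), with 1 point per library (circles, iBMDMs; triangles, TGEMs; colours, groups). Pdia6 keeps the order JunDKO, Scramble, Atf3KO and JunKO of Saa3 within iBMDMs, whereas Lcn2 is about level in Scramble, Atf3KO and JunKO.

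In TGEMs KLA for 1 h against vehicle asks how the members respond to TLR4. Of the 3 members tested 0 were called, against 1.13% of all tested genes called in either direction. Saa3 had a log2 difference of -0.03 with a 95% interval of -0.84 to 0.78, and Hp of -0.19 with an interval of -0.91 to 0.53 (limma adjusted p = 0.974 and 0.799). Slpi had a log2 difference of 1.81 with an interval of 0.09 to 3.53 (limma adjusted p = 0.318), and its vehicle and KLA libraries overlapped. The cells had responded, since 6 of 20 tested inducers and regulators were called higher and 0 lower, against 1% of all tested genes called higher (median log2 difference 0.98 against -0.15 over all tested genes). Among them Tnf rose from 20.6 and 18.1 RPKM to 2765, 4480 and 3718, and Socs3, a feedback inhibitor of STAT3 signalling, from 4.45 and 4.40 to 307, 205 and 257. Of 13 tested receptors and partners 2 were called higher, Cd14 and Tlr2, each in 9 of 13 alternatives, and of 6 further acute-phase proteins 0 were called. Il6 stayed between 0 and 4.91 RPKM in TGEMs.

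The response of Slpi was set side by side in the strains, whose difference did not pass the test. In C57Bl/6EiJ TGEMs, whose libraries shared a label date, it measured 9.37 RPKM with vehicle and 7.07 with KLA, a ratio of 0.754 (exact 95% counting interval 0.440 to 1.23). In Balb/cJ TGEMs it measured 1.47 RPKM with vehicle, from 3 reads, and 28.3 and 23.4 with KLA. Replicate 1 of these KLA libraries shared the label date of the vehicle library and gave a ratio of 19.2 (exact 95% counting interval 6.54 to 93.7). The interaction of treatment and strain had a log2 value of 3.80 ± 0.50 (SE) for Slpi, which did not pass the adjusted threshold (limma adjusted p = 0.190, 1 residual degree of freedom). Without the Balb/cJ vehicle library the KLA difference of Slpi was -0.36 (limma adjusted p = 0.925), without the C57Bl/6EiJ vehicle or KLA library it was 3.44 and called (limma adjusted p = 0.0162 and 0.0142), so single libraries decide it.

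Strain was compared in the same fit, with Balb/cJ reads aligned by the study to a genome of that strain. Of the 3 members 0 were called, against 1.16% of all tested genes called in either direction. Saa3 differed by -0.03 (95% interval -0.84 to 0.78), Hp by -0.06 (-0.78 to 0.65) and Slpi by 0.10 (-1.62 to 1.82), with limma adjusted p = 0.967, 0.922 and 0.947. In vehicle libraries alone Saa3 stood at 171 RPKM in C57Bl/6EiJ and 105 in Balb/cJ, and in KLA libraries at 105 against 125 and 169. The interaction of treatment and strain for Saa3 did not pass the test (log2 value 1.16, limma adjusted p = 0.701). Of the receptors and partners C1qa, C1qb and C1qc were called lower in Balb/cJ, by log2 differences of -2.38, -3.88 and -3.10, against 0.772% of all tested genes called lower, and 0 of the further acute-phase proteins and of the inducers were called. C1qa and C1qc were called in 8 of 12 alternatives and C1qb in 11. Of 8 macrophage markers 5 had a lower level in Balb/cJ, and the list had a median log2 difference of -0.89 against -0.08 over all tested genes. Of them Csf1r was called lower (-1.37, limma adjusted p = 0.0483), in 4 of 12 alternatives. Their part in the C1q differences was not tested. Strain and label date cannot be told apart here.

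TGEM libraries also held RNA of other cells. Summed fibroblast markers ranged from 41.7 to 85.6 RPKM with 5 of 5 markers reaching 1 RPKM, mesothelial markers from 5.46 to 10.7 RPKM with 4 of 6, and B cell markers from 10.1 to 23.9 RPKM with 4 of 4, against at most 0.532, 4.41 and 0.488 RPKM in iBMDMs. The neutrophil markers summed to 0.794 to 13.4 RPKM in TGEMs, most of it S100a8 (8.84 of 10.2 RPKM in the C57Bl/6EiJ vehicle library). Levels in TGEMs and iBMDMs are set side by side only, since cell kind, culture and date differ together. With that limit, Lcn2 was at 0 in 3 of 5 TGEM libraries and at most 1.37 RPKM in the others, Fpr1 was at 0 in all 5, and C3 lay between 20.7 and 30.4 RPKM, near its level in JunDKO iBMDMs. The part of these other cells in the Saa3 and Slpi levels of TGEMs was not tested.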

How the data were processed

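Of 17 samples, the 13 RNA-seq libraries were used, and 4 GRO-seq samples were not analysed here. The deposited values are the authors' RPKM over exons of 24453 gene models, made with STAR on mm10 or, for Balb/cJ, on a genome of that strain, and with HOMER; versions and a strand option are not given in the sources used here. The authors' own tests used edgeR, and no column of the table holds them. RPKM steps gave depth and whole reads: for values up to 50 reads 100% were whole (tolerance 0.05 reads or the rounding of RPKM, if larger). Depth was 1553296 to 18444431 reads, so 3 reads of Slpi are 0.187 to 2.22 RPKM in these libraries.

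log2(RPKM + 1) of genes with a mean of at least 1 RPKM was fitted with limma-trend: 4 groups over 8 iBMDM libraries (4 residual degrees of freedom), and treatment with strain over 5 TGEM libraries (2 residual degrees of freedom). P values are two-sided, adjusted by Benjamini-Hochberg over all 10691 or 10357 genes tested. A call needs an adjusted p below 0.05, a 2-fold difference and a mean of 16 RPKM in either group. The log2(RPKM + 1) scale understates differences of low genes. Replicates are numbered in the titles of iBMDMs and were numbered in accession order for Balb/cJ KLA. No label says whether they came from separate infections or animals, so the p-values measure the spread between these libraries. No pair of replicates agreed within sampling noise. Chi-square per degree of freedom was 4.01 in Scramble, 3.74 in JunKO, 3.67 in JunDKO, 27.6 in Atf3KO and 81.0 in Balb/cJ KLA. The iBMDM fit pools the spread of its 4 groups. The SE and p of Atf3KO therefore do not rest on its own pair alone. Counting intervals cover counting error only. The fit and the recovery of reads were tested on simulated data.

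Members, lists, thresholds and motifs were chosen with earlier results of these data known. Every member is named; of the lists (further acute-phase proteins, inducers and regulators, receptors and partners, knockout targets, cell markers), genes called in a comparison may be named. Il6, S100a8, S100a9, the neighbours and examples below a call were named after their values were seen. Alternatives were other pseudocounts, no filter, no RPKM minimum, equal medians, limma-voom on recovered reads, removal of each library's trend with GC content (sequence for 99.04% of models), each library left out, a replicate block, fits of only the groups compared and label date for strain. Fits without Atf3KO, the crossed block and the interaction were added after the values were seen. Fits were run in R 4.3.3 with limma 3.58.1, and the rest in Python 3.11.15 with biopython 1.88, matplotlib 3.10.9, numpy 2.4.6 and pandas 2.3.3.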

Additional observations from a re-analysis of the deposited data

Results flagged for a closer look

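Slpi and Saa3 each had a lower value with KLA than with vehicle in C57Bl/6EiJ TGEMs and a higher value in both Balb/cJ KLA libraries. In C57Bl/6EiJ Slpi measured 9.37 RPKM with vehicle and 7.07 with KLA, a ratio of 0.754 whose exact 95% counting interval of 0.440 to 1.23 includes no change. It was higher in both Balb/cJ KLA libraries (1.47 to 28.3 and 23.4 RPKM). The log2 difference of the differences was 3.80 (limma unadjusted p = 0.000745, adjusted p = 0.190), the 27th highest of 10357 genes, with 1 residual degree of freedom. Saa3 was lower with KLA in C57Bl/6EiJ (171 to 105 RPKM) and higher in both Balb/cJ KLA libraries (105 to 125 and 169 RPKM), with a log2 difference of the differences of 1.16 (limma unadjusted p = 0.109, adjusted p = 0.701). Neither passed the adjusted threshold, 1 vehicle library stands behind each strain, and in this interaction 0 genes were called and 835 of 10357 had an unadjusted p under 0.05.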

How the results depend on the processing

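Saa3 and Hp kept their call in Atf3KO, Saa3 and Slpi in JunDKO, and all 3 in Atf3KO against JunDKO, in each of 14 alternatives. Hp in JunDKO was also called without the RPKM minimum. Counts over all genes depended more on the settings. Without the RPKM minimum the calls were 3068 (Atf3KO), 938 (JunDKO), 3057 (Atf3KO against JunDKO) and 239 (strain), against 1339, 531, 1307 and 120. Removal of the GC trend gave 819 in Atf3KO and 55 in JunKO, against 21 in JunKO. JunKO calls were 6 with a pseudocount of 0.1, 9 without a filter and 8 with only the 2 groups compared. KLA calls (117) were 52 without a filter, 228 by limma-voom and 65 with label date in place of strain. Strain calls were 36 without a filter and 345 by limma-voom. With each library left out in turn the ranges were 844 to 1770 (Atf3KO), 264 to 368 (JunDKO), 5 to 11 (JunKO), 879 to 1707 (Atf3KO against JunDKO), 15 to 108 (KLA) and 17 to 235 (strain), and KLA called 0 to 1 members. Counts moved by over 1.5 times without Scramble replicate 2 (844 in Atf3KO, 332 in JunDKO), without JunDKO replicate 1 (264) or 2 (270), for KLA without the Balb/cJ vehicle library (15) or KLA replicate 1 (68), and for JunKO and strain without any one library.

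Differences near 0 changed sign in TGEMs. For KLA, Saa3 went from -0.03 to 0.10 with equal medians and ranged from -0.70 to 0.47 with a library left out, and Slpi from -0.36 to 3.44. For strain, Saa3 was 0.0558 with equal medians and 0.00768 without the GC trend, Hp 0.0225 and 0.178, and Slpi -0.0527 with a pseudocount of 0.1. With a library left out Saa3 ranged from -0.70 to 0.47, Hp from -0.12 to 0.0123 and Slpi from -2.07 to 1.73. Where no cause is named it was not tested.

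With the replicate block the calls were 1320, 506, 8 and 1296 in Atf3KO, JunDKO, JunKO and Atf3KO against JunDKO, and it changed no member's call. Same-numbered libraries deviated together with r of 0.18 to 0.22 among Scramble, JunKO and JunDKO and of -0.12 to -0.21 with Atf3KO, so the numbers were not taken as pairs. Without the Atf3KO libraries in the fit, added later, the calls were 546 in JunDKO and 16 in JunKO. Crossing the Atf3KO numbers in the replicate block gave 1391 and 1365 calls. Depth limits the members at 0 and Slpi in JunDKO and in the Balb/cJ vehicle library.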
